A study of Arabidopsis thaliana with 23 samples.

Results

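Brassinosteroids are the steroid hormones of plants, and they drive cell elongation, stem growth and fertility. Cytochrome P450 enzymes oxidise plant sterols step by step to the active hormone and others inactivate it, while the receptor kinase BRI1 senses it at the cell surface and the transcription factors BES1 and BZR1 carry the signal into the nucleus. BES1 and BZR1 also repress the synthesis genes when hormone is plentiful, a feedback loop, and BES1 has been found to associate with the histone demethylases ELF6 and REF6. The 9 genes described here were chosen by identifier out of 27444 protein-coding genes of the nuclear chromosomes: DWF4, CPD, BR6OX1, BR6OX2 and ROT3 of hormone synthesis, BAS1 of hormone inactivation, the receptor gene BRI1, and BES1 and BZR1. All 9 were found in the gene table. Together 6 of them encode P450 enzymes.

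ChIP-seq was used to map trimethylation of histone H3 at lysine 27 (H3K27me3), which marks genes silenced by Polycomb proteins, and the binding of REF6, a Jumonji demethylase that removes it. The tissue was flowers that had not yet opened, taken from Col-0 plants aged 5 weeks. H3K27me3 was profiled in the elf6-3 ref6C jmj13G triple mutant (2 samples), which carries mutations in REF6 and 2 related demethylase genes, and in the wild type (2 samples). REF6-ZnF-GFP was precipitated through its tag, with the protein crosslinker DSG, from the triple mutant (2 samples, transgene under the REF6 promoter per the labels) and from ref6-3 (3 samples, titled REF6-ZnF-GFP although their genotype entry names REF6-GFP). REF6-GFP was precipitated from ref6-3 with DSG (3 samples) and without DSG (3 samples). Every REF6 sample thus came from a ref6 mutant background carrying a transgene.

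Peak names mark each of the 6 lists as called on pooled replicates. No value below therefore has a replicate error, no difference between lists could be tested, and read depth is not used here. The lists held 9391 H3K27me3 domains in the triple mutant and 7914 in the wild type, covering 23.3 Mb in the triple mutant and 20.9 Mb in the wild type. There were 9327 REF6-ZnF-GFP peaks in the triple mutant and 332 in ref6, and 5393 REF6-GFP peaks with DSG and 4526 without DSG. Coverage is the percentage of a gene body lying under domains. A gene is called marked at 50% or more, gained where coverage is at least 50% in the triple mutant and under 10% in the wild type, and lost in the reverse case. Genes outside these classes that are not under 10% in both genotypes are called intermediate. A gene is called bound where a peak summit lies in its body or within 1 kb of it. Fold enrichment and −log10 q, the strength and the multiple-testing-adjusted confidence of a peak, are the authors' values and describe peaks only within their own list. Positions are TAIR10, and "low end" and "high end" refer to lower and higher coordinates, because the gene table was used without strand.

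H3K27me3 coverage had different values in the triple mutant and the wild type at all 6 P450 genes, by amounts that ran from 2.90 percentage points at CPD to 71.4 at DWF4, and was 0 at the 3 signalling genes. Some coverage was present at 6 of the 9 genes in the triple mutant and at 3 in the wild type. Across all coding genes, 39.2% had some coverage in the triple mutant and 30.1% in the wild type. Coverage was higher in the triple mutant at 5 genes (20.1% of all coding genes), lower at ROT3 (10.7%) and 0 in both genotypes at BRI1, BES1 and BZR1 (59.4%). The median difference, triple mutant minus wild type, was 2.90 percentage points over the 9 genes and 0 over all coding genes. That median is the value of CPD, and it became 0 when domains below a −log10 q of 10 were removed from both lists or from the triple mutant list alone, or when both lists were given equal numbers of domains, and 17.1 when they were removed from the wild-type list alone. By the calls, 3 genes were marked in the triple mutant (30.9% of all genes) and 1 in the wild type (23.7%). One gene, DWF4, was gained (6.29%), 0 were lost (0.565%), ROT3 was marked in both (22.1%), BRI1, BES1 and BZR1 were unmarked in both (60.5%), and CPD, BR6OX1, BR6OX2 and BAS1 were intermediate (10.6%). With 9 genes chosen by name, these counts are a description of the members. They cannot show whether the members depart from the shares over all genes.

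**Figure D1:**
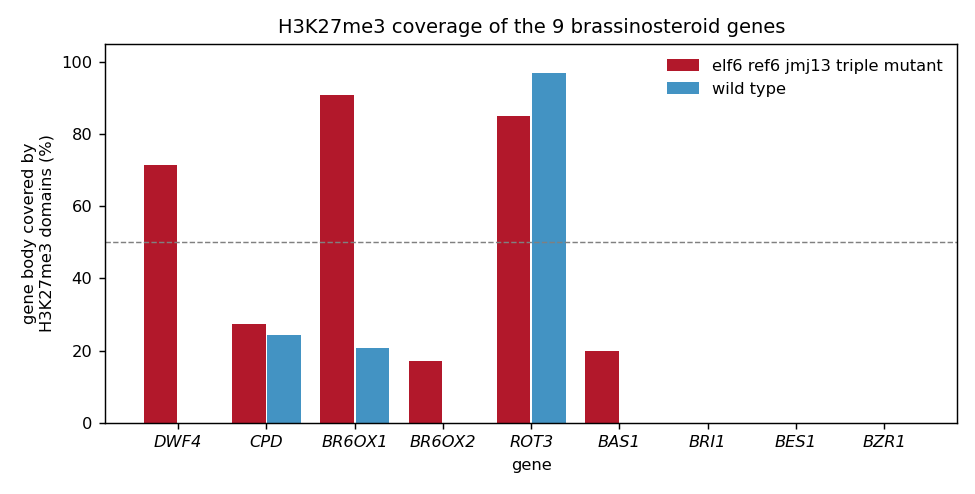
Percentage of each gene body covered by H3K27me3 domains (vertical axis) for the 9 brassinosteroid genes, with the triple mutant in red to the left of the wild type in blue. The dashed line is the 50% limit for a marked gene. DWF4 and BR6OX1 cross it in the triple mutant alone, ROT3 in both genotypes, and BRI1, BES1 and BZR1 have no coverage.

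In descending order, triple mutant coverage was 90.9% at BR6OX1, 85.0% at ROT3, 71.4% at DWF4, 27.3% at CPD, 19.8% at BAS1 and 17.1% at BR6OX2. In the wild type the order was ROT3 with 97.0%, CPD with 24.4% and BR6OX1 with 20.8%, and the other genes stood at 0. Without replicates it cannot be said which neighbours in these orders differ beyond their spread.

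REF6-GFP summits lay at all 6 P450 genes and at none of the 3 signalling genes. With DSG, 6 of the 9 genes were bound, against 25.1% of all coding genes. The same 6 genes were bound without DSG, against 21.4% of all coding genes, and 20.5% were bound in both lists. Some triple mutant coverage was present at all 6, against 47.5% of all genes bound with DSG, and 1 of the 9, DWF4, was both gained and bound with DSG, against 4.34% of all coding genes. The 9 genes are longer than most, with bodies of 2572 to 4980 bp and a median of 3416 bp, against a median of 2078 bp for coding genes. Among all coding genes within that length range, 28.9% were bound by REF6-GFP with DSG and 3.84% were gained. Each bound gene had its counted summit inside the body, not in the flanks. The summits with and without DSG lay 15 bp apart at BR6OX1, 25 bp at ROT3, 38 bp at BR6OX2, 56 bp at CPD, 68 bp at DWF4 and 277 bp at BAS1. Over the 4329 REF6-GFP peaks with DSG that had a summit without DSG within 1 kb, the median distance was 20.0 bp, so the BAS1 pair lay farther apart than the middle of the list. Just outside the 1 kb limit were a second ROT3 summit, 1020 bp from the body with DSG and 1045 bp without DSG, and a BZR1 summit 1531 bp away with DSG and 1525 bp without DSG. No counted REF6-GFP summit lay between the body and the limit, and the one nearest an end of its gene was that of ROT3, inside the body at 96.5% of its length with DSG and 97.0% without DSG.

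**Figure D2:**
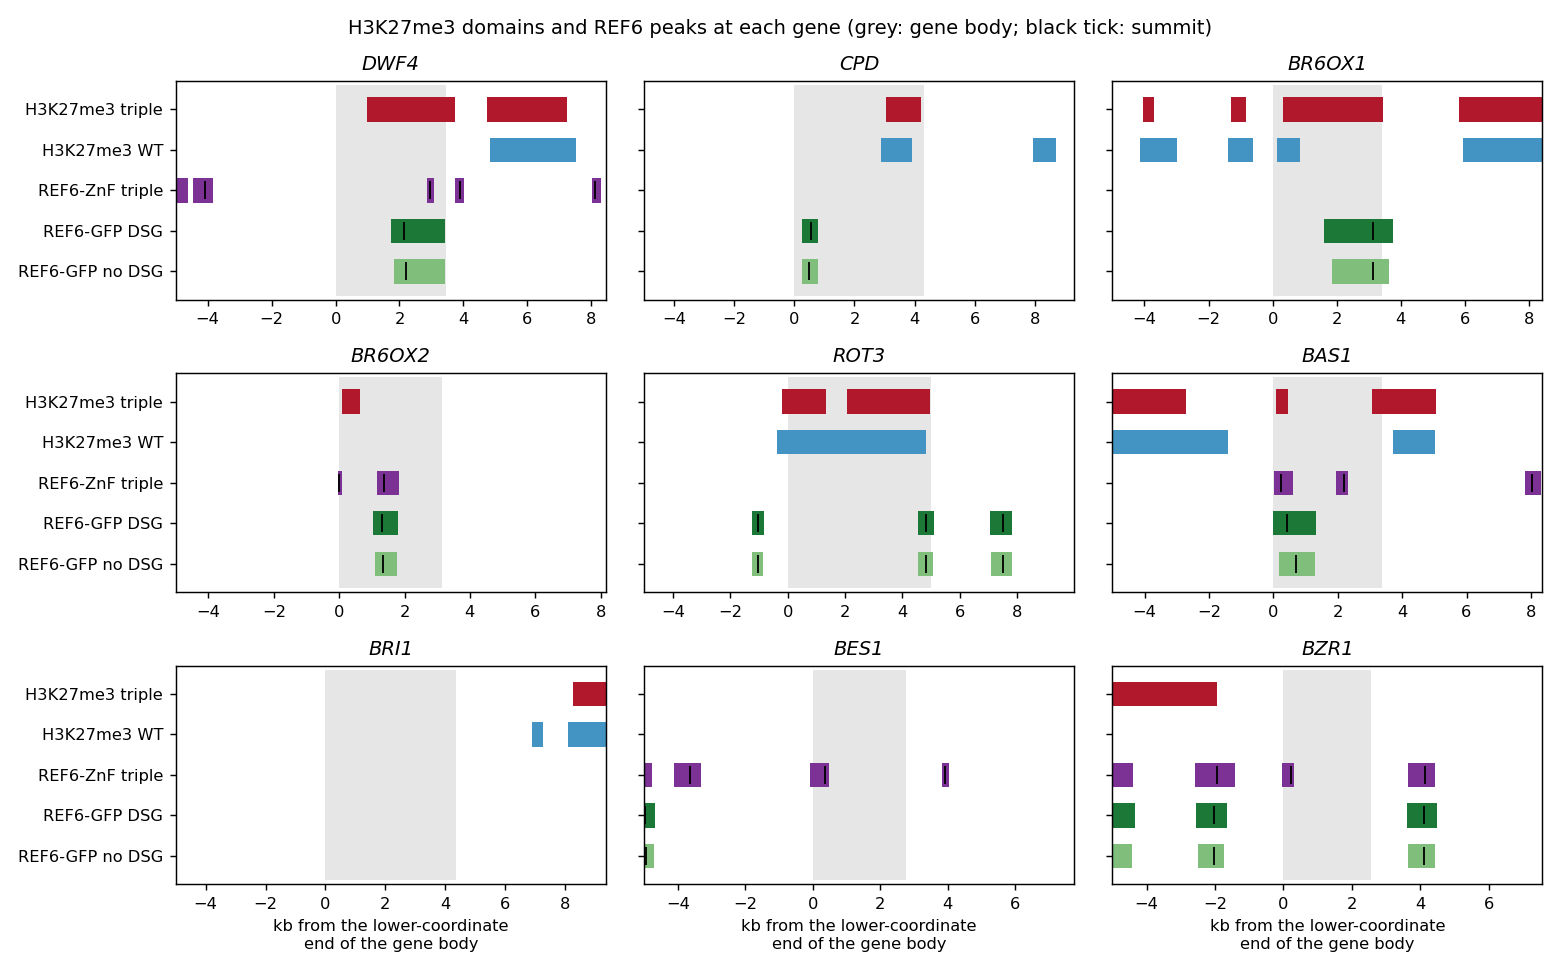
Positions of H3K27me3 domains and REF6 peaks at the 9 genes, from 5 kb before to 5 kb after each gene body (grey), in kb from its lower-coordinate end. Bars are domains or peaks of 1 list and black ticks are REF6 summits. At DWF4 and BR6OX1 the triple mutant domain overlies the REF6-GFP peaks, at CPD and BR6OX2 it lies apart from them, and BRI1 has no REF6 peak and only domains over 2 kb outside its body.

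DWF4 (AT3G50660), which encodes the C-22 hydroxylase that is the rate-limiting step of synthesis, had no wild-type domain in its body and a broad one in the triple mutant. The triple mutant domain (chromosome 3, 18814938 to 18817690) was 2753 bp wide and covered 2468 of the 3457 bp of the body. It had a −log10 q of 93.2 and a fold of 4.23, which ranked 469 of 9391 by fold. Of all coding genes, 5.10% had a difference in coverage at least as large as the 71.4 percentage points of DWF4. The domain began 989 bp inside the low end and ran 285 bp past the high end. A second domain stood 1279 bp beyond the body in the triple mutant, and its counterpart in the wild type stood 1368 bp beyond it, so this neighbouring region was marked in both genotypes. The REF6-GFP peak lay under the triple mutant domain. With DSG (chromosome 3, 18815686 to 18817380) it had a fold of 10.2, above 84.0% of its list, and without DSG it had a fold of 6.89, above 72.8% of its list. Its summit lay 61.8% along the body from the low end with DSG and 63.8% along it without DSG, inside the triple mutant domain and 2686 bp and 2618 bp from the nearest wild-type domain.

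BR6OX1 (AT5G38970) and BR6OX2 (AT3G30180) encode the 2 brassinosteroid 6-oxidases, which carry out the last steps to castasterone, and of these BR6OX2 also makes brassinolide. BR6OX1 was covered over 90.9% of its body in the triple mutant, against 20.8% in the wild type, a difference of 70.1 percentage points that 5.27% of coding genes reached. Its triple mutant domain (chromosome 5, 15594986 to 15598129) was 3144 bp wide with a fold of 2.48 and a −log10 q of 30.5. The wild-type domain (chromosome 5, 15594804 to 15595513) was 710 bp wide, lay near the low end of the body and had a fold of 2.19 and a −log10 q of 15.5. Because wild-type coverage was above 10%, BR6OX1 was not called gained. Counted instead as a difference of at least 50 percentage points, a definition added after the values were seen, gained genes were BR6OX1 and DWF4, or 2 of 9, against 7.71% of all coding genes. BR6OX1 also had the highest REF6-GFP fold of the 9 genes. With DSG its peak (chromosome 5, 15596273 to 15598419) had a fold of 18.2 and ranked 166 of 5393, and without DSG it had a fold of 20.3 and ranked 151 of 4526. Its summits lay 91.6% and 91.2% along the body with and without DSG, at the end away from the wild-type domain, which was 2290 bp and 2275 bp distant, and inside the triple mutant domain.

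BR6OX2 showed a different picture. Its only domain within 5 kb was in the triple mutant (chromosome 3, 11810818 to 11811357), 540 bp wide with a fold of 1.30 and a −log10 q of 1.30, so 17.1% of the body was covered in the triple mutant and 0 in the wild type. Once domains below a −log10 q of 10 were removed this coverage was 0, as it was with equal numbers of domains in both lists. Its REF6-GFP peak with DSG (chromosome 3, 11811757 to 11812529) had a fold of 6.13, above 66.7% of the list, and the one without DSG had a fold of 4.48, above 53.4% of the list. The summits, 41.5% and 42.7% along the body, stood 680 bp and 718 bp from the triple mutant domain. The 2 oxidase genes thus shared a REF6-GFP summit in both lists but differed in how far the triple mutant domains covered them.

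CPD (AT5G05690), the P450 gene named for a dwarf mutant that looks light-grown in the dark, had nearly equal coverage in both genotypes. The triple mutant domain (chromosome 5, 1705691 to 1706868) covered 27.3% of the body with a fold of 2.01 and a −log10 q of 16.9, and the wild-type domain (chromosome 5, 1705514 to 1706566) covered 24.4% with a fold of 1.40 and a −log10 q of 2.34. Both lay toward the high end. Once domains below a −log10 q of 10 were removed from both lists, coverage was 27.3% in the triple mutant and 0 in the wild type, so the difference of 2.90 percentage points became 27.3. The REF6-GFP summits lay at the opposite end, 12.5% along the body with DSG and 11.2% without DSG, 2511 bp and 2567 bp from the triple mutant domain. The peak with DSG (chromosome 5, 1702883 to 1703426) had a fold of 4.56, above 52.5% of its list, and the peak without DSG had a fold of 3.11, above 27.4% of its list.

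ROT3 (AT4G36380), a C-23 hydroxylase gene whose mutants have short, round leaves, was marked in both genotypes and was the only gene of the 9 with lower coverage in the triple mutant. In the triple mutant 2 domains covered 85.0% of the body, one of 1526 bp at the low end with a fold of 2.21 and one of 2909 bp with a fold of 3.85. In the wild type 1 domain of 5208 bp (chromosome 4, 17187151 to 17192358) with a fold of 3.32 covered 97.0%. The break between the triple mutant domains was 741 bp long (chromosome 4, 17188851 to 17189591), or 14.9% of the body. The gene AT4G36370, whose body overlaps that of ROT3 by 83 bp, lay under the same domains and was covered over 79.2% in the triple mutant and 100% in the wild type. REF6-GFP binding at ROT3 was weak within the lists, with folds of 3.33 with DSG and 3.77 without DSG, above 31.1% and 42.0% of the peaks. The counted summit with DSG lay inside the domains of both genotypes, and the one without DSG lay inside the triple mutant domain and 1 bp outside the wild-type domain.

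BAS1 (AT2G26710) encodes the C-26 hydroxylase that inactivates the hormone. It was covered over 19.8% of its body in the triple mutant and 0 in the wild type, through 2 separate pieces. A domain of 373 bp (chromosome 2, 11380549 to 11380921) near the low end had a fold of 1.63 and a −log10 q of 5.21. At the other end, a domain over the neighbouring gene AT2G26720 reached 291 bp into BAS1 in the triple mutant (chromosome 2, 11383531 to 11385499), whereas its wild-type counterpart (chromosome 2, 11384186 to 11385496) stopped 365 bp short of the body. The body of AT2G26720 itself was covered over 100% in both genotypes. Without triple mutant domains below that same limit, BAS1 coverage was 8.66%. The REF6-GFP peak with DSG (chromosome 2, 11380465 to 11381774) had a fold of 5.77, above 64.2% of its list, and its summit lay inside the 373 bp domain. Without DSG the peak had a fold of 4.14, above 48.7% of its list, and its summit lay 243 bp from that domain.

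Over the 6 bound genes, the counted REF6-GFP summit with DSG lay inside a triple mutant domain and outside every wild-type domain at 3 (DWF4, BR6OX1 and BAS1), against 36.3% of all summits of that list. Counting ROT3 as well, it lay inside a triple mutant domain at 4 (43.6% of summits) and inside a wild-type domain at 1 (7.34%). It lay inside domains of both genotypes at ROT3 and outside the domains of either at CPD and BR6OX2. Without DSG the summits inside a triple mutant domain alone were those of DWF4, BR6OX1 and ROT3, where ROT3 is so placed by 1 bp. The share over all summits without DSG was not computed, so this count has nothing to be read against.

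The signalling genes carried neither the mark nor a REF6-GFP summit. BRI1 (AT4G39400), BES1 (AT1G19350) and BZR1 (AT1G75080) had 0 coverage in their bodies and in the 1 kb on either side, in both genotypes. The nearest domain to BRI1 was 3899 bp away in the triple mutant and 2546 bp away in the wild type, on the side of the neighbouring WRKY13, which was covered over 94.6% in the triple mutant and 100% in the wild type. No domain of either genotype lay within 5 kb of BES1. The nearest REF6-GFP summit to BES1 was 4964 bp away with DSG and 4944 bp away without DSG. These summits lay 97 bp and 117 bp from a triple mutant domain that was farther from BES1. BRI1 had no REF6-GFP or REF6-ZnF-GFP peak within 5 kb.

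**Figure D3:**
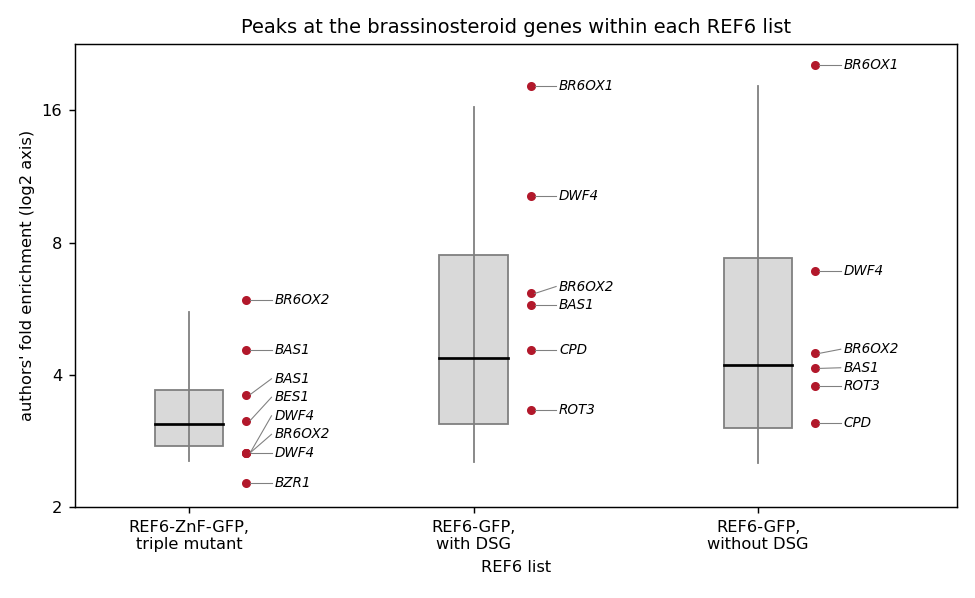
Authors' fold enrichment (log2 axis) of the peaks counted at the brassinosteroid genes (red points) beside the distribution of all peaks in the same list (line, percentiles 5 to 95; box, percentiles 25 to 75; bar, median). Folds are to be read within a list. BR6OX1 lies above the 95th percentile of both REF6-GFP lists, and ROT3 lies below the median of both.

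REF6-ZnF-GFP peaks in the triple mutant were found at 5 of the 9 genes, against 35.1% of all coding genes, and followed the chromosome. This list is uneven, as 51.9% of coding genes on chromosomes 1 to 3 were bound in it and 8.08% on chromosomes 4 and 5, whereas REF6-GFP with DSG bound 24.6% and 25.8%. All 5 genes on chromosomes 1 to 3 (DWF4, BR6OX2, BAS1, BES1 and BZR1) had a REF6-ZnF-GFP summit, and 0 of the 4 on chromosomes 4 and 5 did. The absence of peaks at CPD, BR6OX1, ROT3 and BRI1 therefore cannot be told apart from the low peak number of their chromosomes. The highest fold among these peaks was at BR6OX2 (chromosome 3, 11811887 to 11812566), with a fold of 5.92, above 96.0% of its list, and its summit lay 67 bp from the REF6-GFP summit with DSG. A second BR6OX2 summit had a fold of 2.66, above 11.2% of the list, and lay 1306 bp from it. BAS1 had 2 summits, with folds of 4.56 and 3.61, which lay 201 bp and 1777 bp from the REF6-GFP summit. For comparison, the median distance was 195 bp over the 2369 REF6-ZnF-GFP peaks with a REF6-GFP summit within 1 kb. At DWF4 the 2 REF6-ZnF-GFP peaks had a fold of 2.66 each, above 11.2% of the list, and lay 807 bp and 1752 bp from the REF6-GFP summit. BES1 and BZR1 had REF6-ZnF-GFP summits in their bodies without a REF6-GFP summit, with folds of 3.15 and 2.27 and −log10 q of 8.17 and 4.89. Most peaks of that list lacked one too, since 2369 of 9327 had a REF6-GFP summit with DSG within 1 kb. When peaks below a −log10 q of 10 were left out, 2 of the 9 genes, BR6OX2 and BAS1, were bound, against 16% of all coding genes. In ref6, REF6-ZnF-GFP had a summit at 0 of the 9 genes, and at 1.08% of all coding genes.

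**Figure D4:**
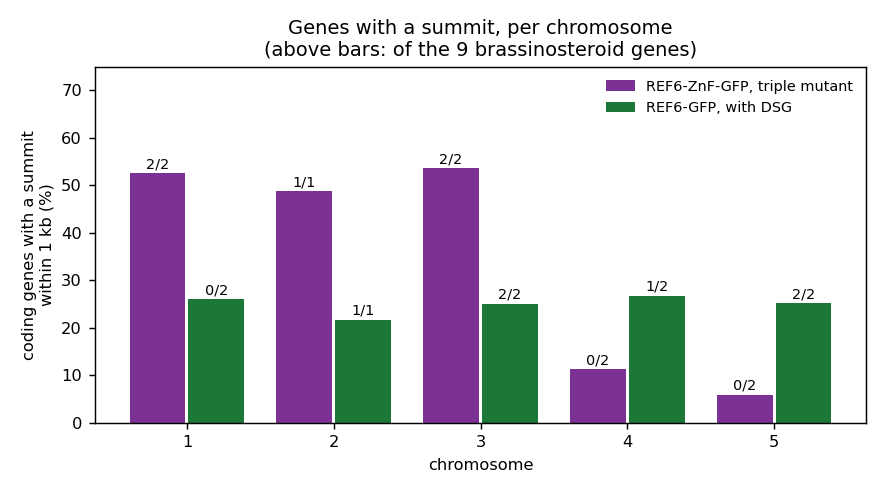
Percentage of protein-coding genes with a summit in the body or within 1 kb (vertical axis) on each chromosome. Triple mutant REF6-ZnF-GFP is drawn in purple on the left and REF6-GFP with DSG in green on the right. Numbers above the bars give how many of the 9 brassinosteroid genes on that chromosome were bound. REF6-ZnF-GFP stands at 11.3% on chromosome 4 and 5.94% on chromosome 5, where 0 of 4 genes were bound.

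A list of 40 other brassinosteroid genes was described in the same way. In it, 2 genes were gained, or 5.00%, against 6.29% of all coding genes, and 0 were lost. In the triple mutant 15 were marked, or 37.5% against 30.9%, and in the wild type 12 of the 40 were, against 23.7%. REF6-GFP with DSG bound 9 of them, or 22.5% against 25.1%. Coverage was higher in the triple mutant at 8, or 20.0% against 20.1% of all coding genes, and lower at 7, or 17.5% against 10.7%. The median difference was 0, as it was over all coding genes. REF6-ZnF-GFP in the triple mutant bound 23 of the 40, or 57.5% against 35.1%. These were 22 of the 27 genes on chromosomes 1 to 3, or 81.5% against 51.9%, and 1 of the 13 on chromosomes 4 and 5, or 7.69% against 8.08%.

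Both gained genes in this list encode transcription factors. They were the 2 nearest to DWF4 in the pair of coverages. This follows largely from the definition of gained, which uses the same coverages, and is no separate likeness. BEH1 (AT3G50750), a homologue of BES1 and BZR1, was covered over 60.8% in the triple mutant and 0 in the wild type, and stood 10.6 percentage points from DWF4. BEE2 (AT4G36540), a bHLH factor of the early brassinosteroid response, was covered over 84.9% in the triple mutant and 0 in the wild type, 13.6 points from DWF4. The BEE2 domain had a −log10 q of 6.90, and when weaker domains than 10 were dropped its coverage was 0 in both genotypes. BEE2 carried a REF6-GFP peak with a fold of 7.72 with DSG (chromosome 4, 17243547 to 17245089) and 5.89 without DSG. BEH1 had a REF6-ZnF-GFP peak with a fold of 8.61 and a REF6-GFP peak of 2.35 with DSG, and no REF6-GFP summit without DSG. Of the relatives of BES1 and BZR1, BEH4 was unmarked in both genotypes although it had 2 counted summits in each REF6-GFP list. The highest fold of its peaks was 14.5 with DSG and 11.3 without DSG. BEH2 had no coverage and no summit, and BEH3 was covered over 7.07% in the triple mutant and 0 in the wild type.

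REF6-GFP with DSG bound 3 of the 7 genes for receptors and their partners and 1 of the 10 kinase and phosphatase genes, against 25.1% of all coding genes, and none of these 4 was marked in either genotype. BRL1 (AT1G55610), a BRI1 homologue that binds brassinosteroids, had folds of 16.4 with DSG and 14.1 without DSG, and coverage was 0 in both genotypes. BSK3 (AT4G00710), a kinase acting just below BRI1, had folds of 18.5 and 20.2 with and without DSG, the highest in the list of 40, with the summit 236 bp outside the body with DSG and 0 coverage in both genotypes. BRL2 had a fold of 7.45 with DSG and was covered over 12.5% in the triple mutant and 0 in the wild type. BRL3 had a fold of 2.65 with DSG and was the 1 gene of the 40 with a REF6-ZnF-GFP summit in ref6, with a fold of 1.70. BAK1, the co-receptor gene, had no summit in any list and no coverage. BKI1, which encodes an inhibitor of BRI1, was covered over 65.4% in the triple mutant and 100% in the wild type. CDG1, a receptor-like cytoplasmic kinase gene, was covered over 97.6% in the triple mutant and 100% in the wild type.

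Of the other synthesis genes, DWF1, which acts early on sterols, was unmarked in both genotypes. It had 2 counted REF6-GFP summits with DSG and 1 without DSG. The highest fold was 12.4 with DSG and 10.2 without DSG, at summits 253 bp and 245 bp outside the body. CYP90D1, which acts beside ROT3 in C-23 hydroxylation, was marked in both genotypes as ROT3 was, with 70.8% in the triple mutant and 78.8% in the wild type, but had no REF6-GFP summit. DET2, DWF5 and DWF7 had no coverage and no REF6-GFP summit. Among inactivation genes, CYP72C1, a relative of BAS1, was covered over 69.2% in the triple mutant and 44.2% in the wild type without a REF6 summit in any list. UGT73C6, a glucosyltransferase gene, was covered over 84.1% in the triple mutant and 62.1% in the wild type with a REF6-GFP fold of 2.72 with DSG. Its neighbour UGT73C5, a close copy, had 0 coverage in both genotypes and no REF6-GFP summit. Reads could be divided between these genes, which was not tested, so both sets of values are uncertain. BEN1 was covered over 58.8% in the triple mutant and 85.6% in the wild type, and the bHLH gene BEE1 over 59.5% in the triple mutant and 74.1% in the wild type.

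**Figure D5:**
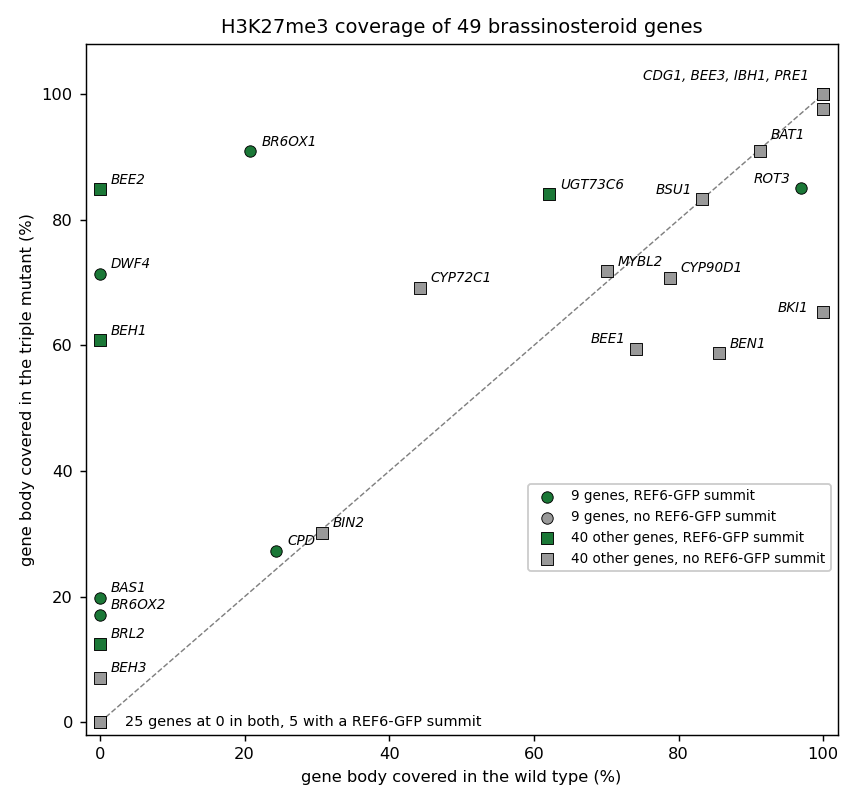
H3K27me3 coverage of the gene body in the triple mutant (vertical axis) and in the wild type (horizontal axis) for 49 brassinosteroid genes, with circles for the 9 genes and squares for the 40 others, green where a REF6-GFP summit with DSG was counted. Equal coverage lies on the dashed line. DWF4, BEH1 and BEE2 lie on the vertical axis above 50%, BR6OX1 lies to their right, and 25 genes lie at 0 in both genotypes, of which 5 had a summit.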

How the data were processed

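Per the submitters' processing notes, the TAIR10 build was used with MACS2 2.1.0, Bowtie 1.1.2, deepTools and Picard 2.60, in no stated order. The deposited lists have no header and were read in MACS2 column order. Their peak names carry the word pooled, and a list was therefore treated as a single call over all samples of its group. The fold deposited for a peak is a ratio on the linear scale, and the sources used here do not name its control. The −log10 q values are the authors' own, and the deposited score was not used. The 8 samples without a list were not analysed here.

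Gene bodies came from a RefSeq table of TAIR10.1, used without strand, exons or sequence, and its bodies can differ from TAIR10 gene models. All 49 brassinosteroid genes were matched by identifier. As a check on the builds, 85.9% of REF6-GFP summits with DSG fell in coding genes, against 64.5% and 63.8% after shifts of 20000 bp down and up. Coverage, calls and summit distances were computed in Python 3.11.15 (numpy 2.4.6, pandas 2.3.3) and tested on simulated data. No statistical test was made, since no list has replicates. The members and gene lists were chosen with earlier results of these data known. Of the list of 40, genes gained or bound by REF6-GFP with DSG were named by rule, and the other genes named from it were chosen after their values were seen. A planned search for promoter motifs was not run because no sequence was used here.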

Additional observations from a re-analysis of the deposited data

How the results depend on the processing

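No paired analysis was possible because each list is 1 call on pooled samples, and for the same reason no replicate could be left out. Under 13 alternatives, of which 12 were planned and 1 was added after the data were seen, 57 of the 63 recomputed counts of members stayed within 1.5 times the reported count. Some of these could not change, as the list behind a count was unaltered or a count of 0 met a tighter limit. Coverage differences of single genes were not in this tally, and those of CPD, BR6OX2 and BAS1 moved under some alternatives. The gained count of 1, and the gained and bound count of 1, became 0 with marked set at 80% coverage, since DWF4 is covered over 71.4%. At that limit 3.89% of all coding genes were gained and 2.77% gained and bound. Both counts became 2 with a gain defined as 50 percentage points, against 7.71% and 5.27% of all coding genes. The REF6-ZnF-GFP count of 5 in the triple mutant, against 35.1% of all coding genes, became 2 with a −log10 q of at least 10, against 16%. With a fold of at least 4 it was also 2, against 8.30% of all coding genes. A limit of 2 kb added BZR1 to both REF6-GFP lists, giving 7 bound genes in each. At that limit 32.2% of all coding genes were bound with DSG and 27.8% without DSG. A fold of at least 4 left 5 bound genes with DSG and 4 without DSG, against 14.9% and 12% of all coding genes. Over all coding genes, the 1727 gained genes became 2784 when only wild-type domains below a −log10 q of 10 were dropped and 1067 at 80% coverage, and the 155 lost genes ranged between 49 and 831. In the wider list, UGT73C6 and MYBL2, both marked in both genotypes, were called lost when weak domains were dropped from the triple mutant list alone and gained when they were dropped from the wild-type list alone. Pooled lists, unknown depth and an unknown control limit every difference between lists.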

Other observations

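BZR1 itself had neither the mark nor a counted REF6-GFP summit, but its surroundings did. This locus was singled out after its values were seen. On the low side, a triple mutant domain of 9106 bp (chromosome 1, 28174460 to 28183565) ended 1939 bp before BZR1. It had a fold of 3.61 and a −log10 q of 95.5. No wild-type domain lay within 5 kb of BZR1, but one farther out ended inside this triple mutant domain. The REF6-GFP summit with DSG 5275 bp before BZR1 lay 695 bp from that wild-type domain. The neighbouring genes AT1G75060 and AT1G75050 were each covered over 100% in the triple mutant and 0 in the wild type. REF6-GFP peaks with DSG lay on either side of BZR1, with folds of 14.8 (summit 2037 bp before the body) and 13.9 (1531 bp after it). Without DSG their folds were 14.8 and 7.08. REF6-ZnF-GFP in the triple mutant had summits 1953 bp before and 1554 bp after the body, with folds of 4.57 and 2.92.

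The nearest low-side neighbour of BR6OX1, AT5G38960, stood 711 bp away. It was covered over 44.5% in the triple mutant and 64.9% in the wild type, a difference opposite in direction to that of BR6OX1 itself. It was not among the genes named by rule. Next to it, AT5G38950 was covered over 81.3% in the triple mutant and 100% in the wild type. On the high side, the next domain beyond BR6OX1 had nearly the same width in both genotypes. It was 2976 bp wide with a fold of 2.44 in the triple mutant, and 2957 bp with 2.59 in the wild type. The nearest high-side genes stood farther off and differed in the direction of BR6OX1. AT5G38980, 8594 bp away, was covered over 45.9% in the triple mutant and 0 in the wild type. AT5G38990, 10596 bp away, was covered over 97.1% in the triple mutant and 40.6% in the wild type. The cause of these differences was not tested.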
